A study of Homo sapiens with 6 samples.

Results

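The genes described here are markers and regulators of the luminal and basal lineages of breast epithelium, measured in MDA-MB-231 cells with and without NR1D1. The set was chosen by name as 35 genes, with earlier results of these data known. Of these, 28 had a probe set carrying their symbol, among 14884 named genes in all. KRT6A, KRT17, KRT81, TP63, ELF3, MUC1 and CDH3 had none in the annotation table used here and were not analysed here. MDA-MB-231 is an established human breast carcinoma line, known as triple-negative because it lacks the estrogen receptor, the progesterone receptor and amplified HER2. NR1D1 KO cells were compared with Control cells, with 3 arrays each, and both had spent 72 h in 200 μM H2O2. NR1D1 encodes the circadian repressor REV-ERBα. The labels do not say how the gene was knocked out or whether the KO cells are 1 clone, and all arrays were treated, so no value here separates a difference that preceded the peroxide from one that followed it. Beyond the word biological in the titles, no label says that replicate arrays came from separate cultures, so the p-values rest on array-to-array spread that may be technical.

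Breast epithelium has an inner luminal layer and an outer basal layer. Luminal cells carry the simple keratins KRT7, KRT8, KRT18 and KRT19 and depend on the transcription factors GATA3, FOXA1 and, in hormone-sensing cells, the receptors encoded by ESR1 and PGR. Basal cells carry KRT5, KRT14 and KRT17 and depend on TP63. Claudins seal tight junctions between epithelial cells, the splicing factors ESRP1 and ESRP2 and the transcription factors of the grainyhead and OVOL families keep the epithelial state, and carcinoma lines of the claudin-low kind, among them MDA-MB-231, have largely left it.

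NR1D1 KO cells had lower transcript levels of CLDN1, a tight junction claudin, and of GATA3 and TRPS1, both GATA-type zinc finger factors of the luminal lineage. They had slightly higher levels of EPCAM, an epithelial adhesion molecule, and of the simple keratins KRT18 and KRT19. CLDN1 was 2.15-fold, GATA3 1.65-fold and TRPS1 1.63-fold lower, while EPCAM was 1.32-fold, KRT19 1.33-fold and KRT18 1.28-fold higher (3 KO against 3 control arrays). KRT18 is given by its brighter probe set, which by its number may not lie at KRT18 (see the keratins below). The other KRT18 probe set did not pass the test. The hormone receptors, basal keratins and regulators of the epithelial state that were measured did not pass the test. In whole-culture RNA, fewer cells of a type and less RNA per cell cannot be told apart.

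Of the 28 measured lineage genes, 6 passed a limma adjusted p of 0.05 (Benjamini-Hochberg over all named genes), 3 higher and 3 lower in NR1D1 KO, which is 21.4% of them. Over all genes tested 9.49% passed, 4.74% in each direction. Calls were more frequent among brighter genes, with 15% of all genes at or above the median level and 3.96% of those below it. Among the lineage genes 5 of 13 at or above that level passed and 1 of 15 below it, CLDN1. The median log2 change (KO minus control throughout) was -0.00995 over the 28 genes and 0.003862 over all genes, and the median size of change regardless of direction 0.1015 and 0.125. CLDN1 was the single lineage gene called with a change of 2-fold or more, against 0.954% of all genes.

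**Figure D1:**
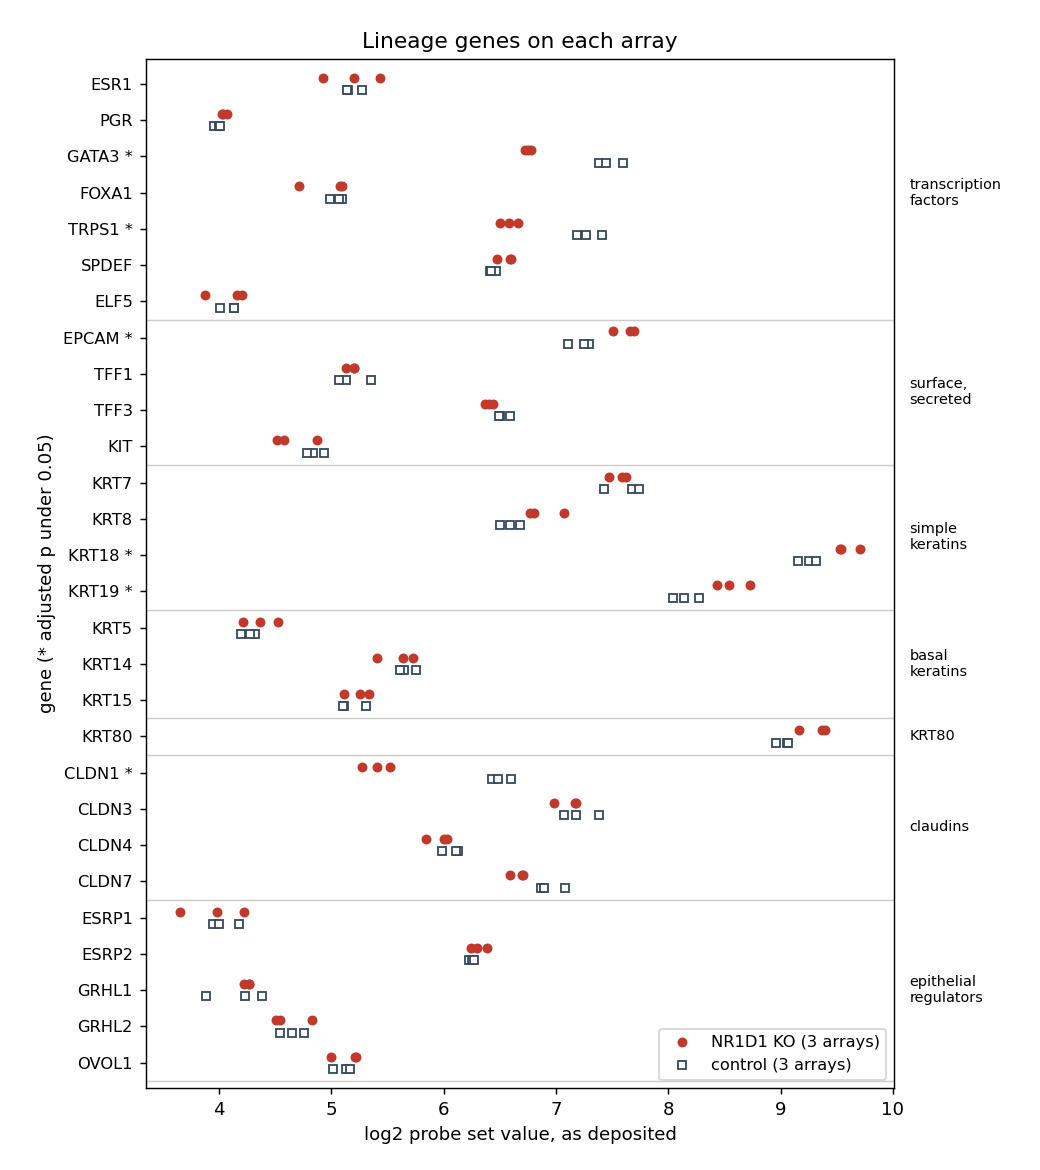
Log2 probe set value of each of the 28 measured lineage genes on the 3 NR1D1 KO arrays (filled circles) and the 3 control arrays (open squares), grouped by role; asterisks mark an adjusted p under 0.05. KRT18 and KRT80 sit above 8.9 on all arrays and PGR near 4, and the KO and control points of CLDN1, GATA3 and TRPS1 are well apart.

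The 6 arrays had medians between 5.18 and 5.22 over 53617 probe sets and correlated over genes at 0.9907 to 0.9934 within a group and 0.9824 to 0.9853 between groups. The 12 measured mesenchymal genes of claudin-low lines had a median level at percentile 88.2 of named genes, with a range of 20.3 to 99.9. TWIST1, TWIST2, SNAI1 and ZEB2 lay below the median level of all genes. The mesenchymal filament gene VIM stood at 9.35 ± 0.08 in KO and 9.01 ± 0.0479 in control (log2, mean ± SD, n = 3 each). The hyaluronan receptor gene CD44 stood at 9.51 ± 0.0973 and 9.86 ± 0.0187. EGFR, counted here with the basal genes, stood at 10.59 ± 0.0444 and 10.44 ± 0.084. No probe set carried the name of CDH1, ERBB2 or NR1D1, so neither E-cadherin, HER2 nor the deleted gene could be checked. Of 21 markers of leukocytes, fibroblasts and endothelium 7 were measured, with mean levels of 2.59 to 6.475 in KO and 2.57 to 6.075 in control. The 1 that changed was KDR, an endothelial growth factor receptor gene, at 6.48 ± 0.0216 in KO and 5.97 ± 0.0786 in control (n = 3 each), and its part in the results was not tested.

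A value on these arrays does not by itself show that a transcript was present, since probe sets differ in affinity and background. As a guide, 16 genes of liver, retina, testis and similar tissues had mean values of 3.67 to 7.23 in KO and 3.64 to 7.20 in control, with medians of 4.91 and 5.05. Of the lineage genes, 5 lay above that range in KO (EPCAM, KRT7, KRT18, KRT19 and KRT80), and 8 in control, where GATA3, TRPS1 and CLDN3 joined them. The top of the range was set by MBP alone, and the next genes were TTR in KO (6.04) and PRM2 in control (6.12). Above these next genes lay GATA3 and TRPS1 in KO also, at 6.75 and 6.58. So did CLDN3, CLDN7, KRT8, SPDEF, TFF3 and ESRP2 in both groups. PGR, ELF5, KIT, KRT5, ESRP1, GRHL1 and GRHL2 lay at or below the median of the tissue genes in both groups. CLDN1, at 5.40 in KO and 6.51 in control, lay within the full range in both. Set against the next genes, CLDN1 lay above PRM2 in control and below TTR in KO. A dim probe set can also make a fold too small.

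Among the transcription factors of the lineages, GATA3 and TRPS1 were lower and 5 others did not pass the test (28.6% called, against 9.49% of all genes). GATA3, whose product specifies and maintains luminal cells, measured 6.78, 6.75 and 6.72 on the KO arrays, against 7.60, 7.38 and 7.45 on the control arrays. All KO values lay below all control values, with means of 6.75 ± 0.0304 in KO and 7.48 ± 0.11 in control (n = 3 each). The log2 change was -0.73 with a standard error of 0.0853 (limma adjusted p = 0.00166). TRPS1, which encodes a repressor used as a marker of breast carcinoma, measured 6.66, 6.58 and 6.50 in KO, against 7.18, 7.27 and 7.41 in control. Its groups did not overlap either, and its log2 change was -0.71 with a standard error of 0.0905 (adjusted p = 0.00249). Without any 1 of the 6 arrays, the adjusted p lay between 0.00552 and 0.00992 for GATA3 and between 0.00748 and 0.0132 for TRPS1. Both calls therefore held without any single array.

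ESR1, the estrogen receptor gene, spread over 4.93 to 5.43 on the KO arrays, a range that held all 3 control values (5.14 to 5.27). Its log2 change of 0.00 had a 95% interval of -0.29 to 0.29. PGR, the progesterone receptor gene, measured 4.05 ± 0.0251 in KO and 3.99 ± 0.0288 in control (n = 3 each), with an interval of -0.11 to 0.22. Both probe sets were dim, at percentiles 30.4 and 11.3 of the levels of all named genes. FOXA1, a pioneer factor that opens chromatin for the estrogen receptor, averaged 4.96 ± 0.216 in KO and 5.05 ± 0.0575 in control. Its KO spread came from replicate 3 at 4.71, with the others at 5.10 and 5.08. SPDEF, an ETS factor of secretory luminal cells, averaged 6.56 ± 0.071 in KO and 6.43 ± 0.0266 in control, and ELF5, the ETS factor of luminal progenitors, 4.08 ± 0.18 and 4.09 ± 0.0727 (n = 3 each). The adjusted p of these 5 genes ran from 0.416 for SPDEF to 0.998 for ESR1. Their intervals reach changes of -0.35 to 0.30, so smaller shifts in either direction could not be seen.

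**Figure D2:**
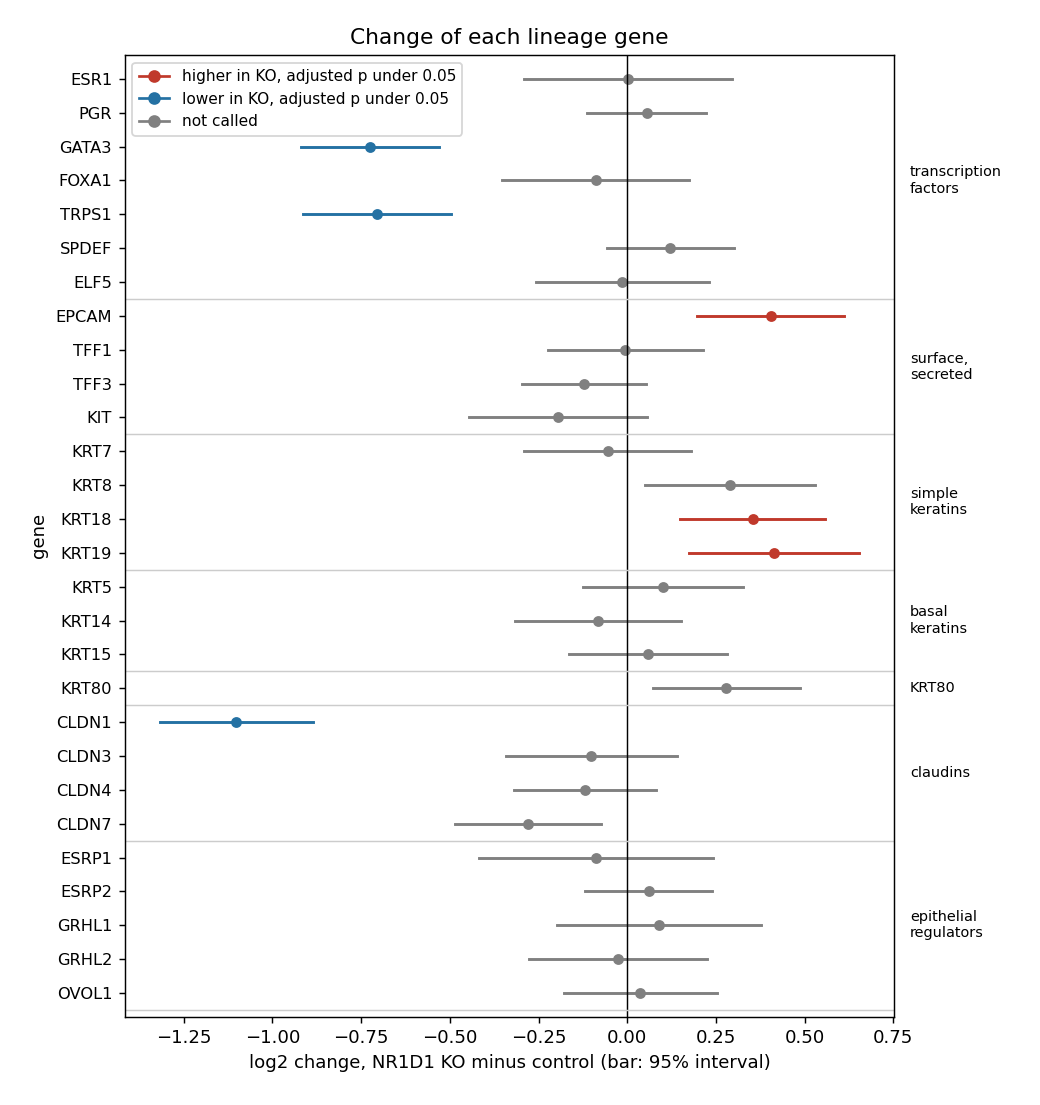
Log2 change of each lineage gene, NR1D1 KO minus control, with its 95% interval from the limma fit; red and blue mark an adjusted p under 0.05. CLDN1 lies at -1.10, GATA3 and TRPS1 near -0.7, and EPCAM, KRT18 and KRT19 between 0.35 and 0.41, while most grey intervals cross 0.

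Of the 4 measured claudins of the set 1 fell (25%, against 9.49% of all genes called) and the others did not pass the test. CLDN1 encodes a barrier-forming claudin of epithelia and skin. It measured 5.53, 5.28 and 5.41 on the KO arrays, against 6.43, 6.49 and 6.60 on the control arrays. The gap between the groups was several times the spread within them, and the log2 change was -1.10 with a standard error of 0.0941 (limma adjusted p = 0.000319). Without any 1 array its adjusted p was at most 0.00246. CLDN7, a claudin of luminal and other glandular epithelia, measured 6.71, 6.59 and 6.70 in KO, against 6.87, 7.08 and 6.89 in control. Its groups did not overlap, but at a log2 change of -0.28 it missed the threshold (adjusted p = 0.0984, unadjusted p = 0.0136). CLDN3 and CLDN4, neighbours on chromosome 7 that are low in claudin-low tumours, overlapped between the groups. CLDN3 averaged 7.11 ± 0.108 in KO and 7.21 ± 0.157 in control, and CLDN4 5.96 ± 0.0998 and 6.08 ± 0.0762 (n = 3 each). The 95% intervals of their log2 changes ran from -0.34 to 0.14 and from -0.32 to 0.08, while that of CLDN1 ran from -1.32 to -0.89. Of 19 further claudin genes, all measured, 1 passed (5.26%, against 9.49% of all genes), CLDN11, a claudin of myelin and testis. It measured 5.88 ± 0.0834 in KO and 6.43 ± 0.103 in control (n = 3 each) and was 1.46-fold lower (limma adjusted p = 0.00787).

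The promoters of CLDN1, of which the transcript fell, and of CLDN3 and CLDN4, of which it did not pass the test, are shown because NR1D1 encodes a DNA-binding repressor and these members of 1 family have a single listed start each. Each line gives the 250 bases before the RefSeq start in assembly GRCh38.p14, 5′ to 3′ on the gene's strand, in lower case with motif matches in capitals. The lines cover chr3:190322447-190322696 (minus strand), chr7:73770271-73770520 (minus strand) and chr7:73830746-73830995 (plus strand), all upstream of the first exon.
CLDN1: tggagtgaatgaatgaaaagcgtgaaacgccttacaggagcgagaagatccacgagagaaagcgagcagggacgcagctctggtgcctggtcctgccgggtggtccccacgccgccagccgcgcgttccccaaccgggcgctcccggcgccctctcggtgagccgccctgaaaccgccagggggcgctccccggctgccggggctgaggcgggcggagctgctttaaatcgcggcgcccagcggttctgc
CLDN3: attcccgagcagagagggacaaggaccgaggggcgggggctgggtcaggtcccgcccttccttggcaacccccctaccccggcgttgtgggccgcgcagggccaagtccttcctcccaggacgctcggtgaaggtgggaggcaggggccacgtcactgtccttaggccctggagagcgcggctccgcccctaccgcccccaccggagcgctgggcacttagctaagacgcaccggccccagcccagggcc
CLDN4: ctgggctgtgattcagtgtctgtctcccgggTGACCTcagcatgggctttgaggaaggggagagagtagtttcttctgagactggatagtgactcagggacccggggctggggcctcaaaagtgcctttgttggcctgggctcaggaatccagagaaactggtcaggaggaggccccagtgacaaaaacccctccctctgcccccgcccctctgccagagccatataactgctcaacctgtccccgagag
Motifs were searched on both strands, AGGTCA (the core bound by REV-ERBα and other nuclear receptors), CAGGTG (an E-box bound by ZEB and SNAI factors) and TATAAA (the TATA box), and no matches overlapped one another. The single match in these 3 windows is an AGGTCA on the opposite strand of CLDN4, printed there as TGACCT. Of 35116 listed promoters 12.1% hold AGGTCA in this window, 17.5% CAGGTG and 10.7% TATAAA. Over the 14 measured lineage genes whose listed promoters were searched, 3 of 27 starts held AGGTCA, those of CLDN4 and both of CLDN7, and none of the 6 listed starts of GATA3 did. These counts describe letters in a short window and not binding. CLDN1 and CLDN3 windows were rich in G and C (68.8% and 71.6%, with 28 and 19 CG dinucleotides), and CLDN4 less so (58.8% and 4).

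Among the keratins, 2 of the 4 of simple epithelium rose, KRT18 and KRT19, and none of the 3 measured ones of the basal layer passed the test. Over all genes 9.49% passed. KRT18, the type I partner of KRT8 in simple epithelia, measured 9.53, 9.54 and 9.71 on the KO arrays, against 9.25, 9.32 and 9.15 on the control arrays (log2 change 0.35, standard error 0.0891, limma adjusted p = 0.0439). KRT19, the smallest type I keratin and a luminal marker, measured 8.43, 8.54 and 8.73 in KO, against 8.14, 8.28 and 8.04 in control (log2 change 0.41, standard error 0.105, adjusted p = 0.0441). In both genes the groups stood apart, replicate 3 was the highest KO array and replicate 3 the lowest control array. KRT8 measured 7.07, 6.81 and 6.77 in KO, against 6.50, 6.68 and 6.59 in control. It did not overlap between the groups and its log2 change of 0.29 was close to that of its partner, but it missed the threshold (adjusted p = 0.139). KRT7, the other simple type II keratin, overlapped, with 7.56 ± 0.082 in KO and 7.62 ± 0.163 in control (n = 3 each). KRT80, a keratin of filaments near desmosomes, measured 9.39, 9.16 and 9.37 in KO, against 9.06, 8.96 and 9.06 in control, without overlap and short of the threshold (adjusted p = 0.103).

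The rises of KRT18 and KRT19 were close to the threshold and depended on single arrays. KRT18 missed it without any 1 of the 6 arrays (adjusted p of 0.0656 to 0.156). KRT19 passed without KO replicate 1 (0.0461) and missed it without KO replicate 2 (0.104), KO replicate 3 (0.115) or control replicate 1 (0.124), 2 (0.0579) or 3 (0.149). KRT18 had a second, dimmer probe set with 7.42, 7.56 and 7.67 in KO, against 7.24, 7.27 and 7.21 in control. Its log2 change was 0.31, and it missed the threshold (limma adjusted p over all probe sets 0.0732). Probe set numbers here broadly follow chromosome position. The number of this dimmer set lies close to that of KRT7 on chromosome 12. That of the called, brighter set lies between those of SOX10 on chromosome 22 and CLDN18 on chromosome 3. The number of the called set thus lies away from those of the chromosome 12 keratins. Whether it reads KRT18 transcripts was not tested, and the KRT18 call and the counts that include it rest on this set. The RefSeq gene table lists 68 pseudogenes named after KRT18, 52 after KRT8 and 5 after KRT19, and transcripts of such copies may share probe sequence with the parent gene, so the levels of these keratins are uncertain.

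The measured basal keratins KRT5, KRT14 and KRT15 had levels of 4.27 to 5.67, overlapped between the groups and had adjusted p of 0.61, 0.698 and 0.784. KRT5 averaged 4.37 ± 0.155 in KO and 4.27 ± 0.0621 in control, KRT14 5.59 ± 0.165 and 5.67 ± 0.073, and KRT15 5.23 ± 0.112 and 5.18 ± 0.116 (n = 3 each). The 95% intervals of the 3 log2 changes spanned -0.32 to 0.33. KRT14 shares long stretches of sequence with KRT16 and KRT17, so its value is uncertain. Taking every measured keratin gene, a list drawn up after the values were seen, 2 of 47 passed (4.26%, against 9.49% of all genes), and these were KRT18 and KRT19. Most keratins were dim, with a median level at percentile 18.9, and of all genes below the median level 3.96% passed. The keratin genes lie in clusters on chromosome 12, where 13 of 22 had a log2 change above 0, and on chromosome 17, where 12 of 25 had, against 51% of all genes.

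Among surface and secreted proteins of luminal cells EPCAM was higher. It measured 7.51, 7.66 and 7.70 on the KO arrays, against 7.11, 7.29 and 7.25 on the control arrays, without overlap (log2 change 0.40, standard error 0.0906, limma adjusted p = 0.0286). The call held without KO replicate 1 (0.0318) and was lost without KO replicate 2 (0.0911), KO replicate 3 (0.0845) or control replicate 1 (0.101), 2 (0.0551) or 3 (0.0815). The trefoil factor genes TFF1, a classical estrogen receptor target, and TFF3 averaged 5.18 ± 0.0389 and 6.41 ± 0.0374 in KO and 5.19 ± 0.151 and 6.53 ± 0.0539 in control (n = 3 each). KIT, the stem cell factor receptor of luminal progenitors, averaged 4.66 ± 0.191 in KO and 4.85 ± 0.0766 in control, with an interval of -0.45 to 0.06 for its log2 change. These 3 had adjusted p of 0.981, 0.403 and 0.345.

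None of the 5 measured regulators of the epithelial state passed over all genes (limma), and none had an unadjusted p under 0.05. The splicing factor gene ESRP1 averaged 3.95 ± 0.287 in KO and 4.04 ± 0.118 in control, and its relative ESRP2 6.31 ± 0.0721 and 6.25 ± 0.0218 (n = 3 each). The grainyhead genes GRHL1 and GRHL2 averaged 4.26 ± 0.0252 and 4.62 ± 0.176 in KO and 4.17 ± 0.254 and 4.65 ± 0.106 in control. OVOL1, a zinc finger repressor, averaged 5.14 ± 0.127 in KO and 5.11 ± 0.0811 in control. Its second probe set changed by -0.0266 on the log2 scale where the first changed by 0.0365. The changes of the 5 genes lay between -0.09 and 0.09 on the log2 scale. All except ESRP2 lay below percentile 30 of the levels of named genes, so a fall from such levels may not be visible on these arrays.

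**Figure D3:**
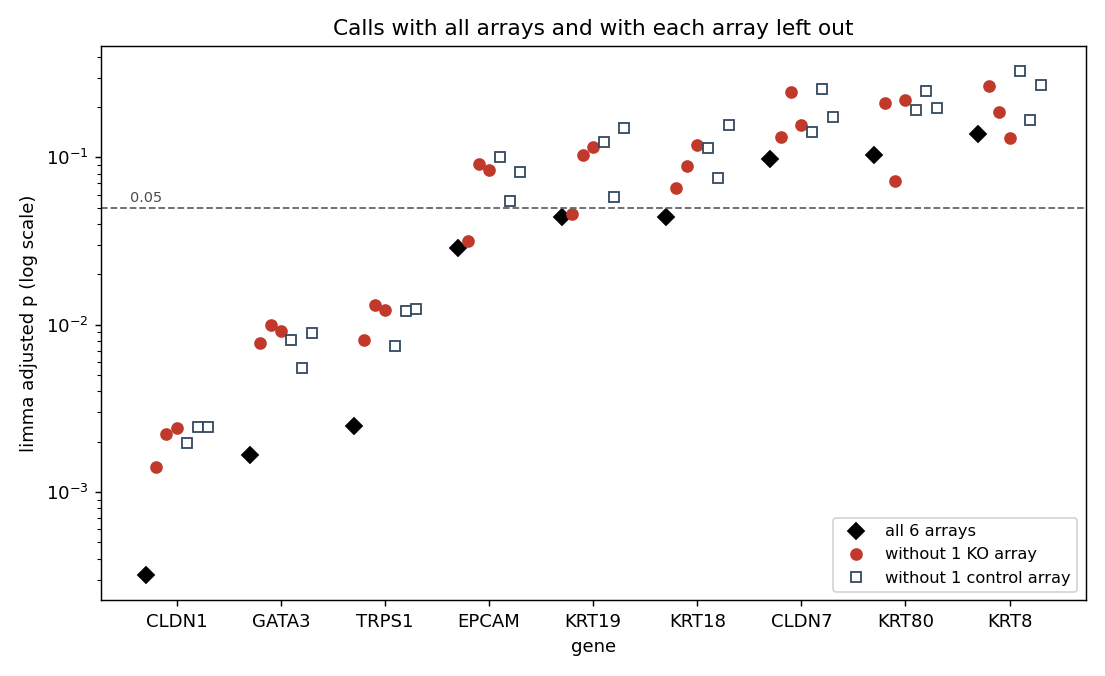
Limma adjusted p (log axis, threshold dashed) of the 6 called lineage genes and of CLDN7, KRT80 and KRT8, with all 6 arrays (diamonds), without 1 KO array (circles) and without 1 control array (squares). CLDN1, GATA3 and TRPS1 stay under the threshold throughout, while EPCAM, KRT18 and KRT19 cross it.

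In count terms, the 3 falls were called without any 1 of the 6 arrays, and the number of lineage genes called dropped from 6 to 5 without KO replicate 1. It was 3 without KO replicate 2, KO replicate 3 or control replicate 1, 2 or 3, and all 3 were then falls. An unadjusted p under 0.05 was reached by 9 of the 28 genes, or 32.1%, against 22.8% of all genes. The KO and control values did not overlap for 12 of the 28 genes, or 42.9%, against 28.7% of all genes. These 12 were the 6 called genes with KRT8, KRT80, CLDN7, TFF3, SPDEF and PGR.

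The place of the genes on the chromosomes was compared with their change. For each gene the 10 measured coding genes on either side were taken. The 20 neighbours of GATA3 were split evenly, 10 above and 10 below 0, with a median log2 change of -0.0034, and those of CLDN1 had 11 above and 9 below. Over all genes 51% were above 0, and 4.74% were called in each direction. TRPS1 lies on chromosome 8, and 12 of its 20 neighbours were below 0, with a median of -0.0891, 3 called lower and 1 called higher. ESRP1 and GRHL2 lie on the same chromosome, where 18 and 15 of their 20 neighbours were below 0 and 2 and 5 were called lower. The medians of these neighbours were -0.25 and -0.189, while ESRP1 and GRHL2 changed by -0.09 and -0.03. FOXA1 on chromosome 14 changed by -0.09 where 18 of 20 neighbours were below 0, with a median of -0.282 and 7 of them called lower. SPDEF on chromosome 6 had 16 of 20 neighbours above 0, with a median of 0.236 and 5 of them called higher. Of the 20 neighbours each of GRHL1, ESR1 and PGR, 5, 4 and 4 were called higher, and 1 of those of PGR was called lower. The part of such shared shifts in the changes of the lineage genes was not tested.

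Other genes of the same programs were counted from lists chosen with earlier results of these data known. Of 95 measured genes in 5 lists, 8 rose and 10 fell, against 4.74% of all genes in each direction. Together these are 18 of 95, or 18.9%, where 9.49% of all genes passed. Of 28 measured genes of luminal cells and their junctions, 2 rose and 3 fell. The prolactin receptor gene PRLR measured 5.51, 5.33 and 5.27 in KO, against 6.43, 6.46 and 6.32 in control, and was 2.04-fold lower (limma adjusted p = 0.000427). The carbonic anhydrase gene CA12, often expressed with the estrogen receptor, was 1.64-fold lower (7.20 ± 0.0604 in KO and 7.91 ± 0.115 in control) and the growth factor receptor gene ERBB3 1.33-fold lower (adjusted p = 0.0243). The small surface glycoprotein gene CD24, a luminal marker that is low in stem-like breast cancer cells, measured 4.53, 5.05 and 4.51 in KO, against 3.80, 3.51 and 3.67 in control, and was 2.05-fold higher from a dim level (adjusted p = 0.00484). LSR, of tricellular junctions, was 1.3-fold higher (adjusted p = 0.0343).

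Of 15 further measured genes, mostly transcription factors, listed with the regulators of the epithelial state, 2 rose and 4 fell (40%, against 9.49% of all genes). The grainyhead and OVOL relatives among them, GRHL3 and OVOL2, did not pass the test (limma adjusted p = 0.774 and 0.296). EHF, an epithelial ETS factor gene, measured 8.38, 8.22 and 8.26 in KO, against 9.49, 9.55 and 9.62 in control, a fall of 2.41-fold with no overlap (limma adjusted p = 0.000114). Its neighbour on chromosome 11 is the lineage gene ELF5, which changed by -0.01. ELF4 was 1.99-fold lower, at 8.35 ± 0.126 in KO and 9.35 ± 0.0583 in control, and ELF1 1.27-fold lower (n = 3 each). RBM47, an RNA-binding protein gene of epithelia, was 1.62-fold lower, while the forkhead gene FOXA2 was 1.51-fold and the luminal AP-2 gene TFAP2C 1.47-fold higher.

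Of 21 measured basal genes 2 rose and 1 fell, together 14.3%, where 9.49% of all genes passed. The Notch ligand gene JAG1 measured 9.50, 9.61 and 9.64 in KO, against 8.81, 8.73 and 8.65 in control, and was 1.81-fold higher (limma adjusted p = 0.000673). SOX9, a progenitor factor gene, was 1.45-fold higher and the neurotrophin receptor gene NGFR 1.48-fold lower (adjusted p of 0.00484 and 0.0339). SNAI2, an E-box repressor of basal cells, stood at 10.22 ± 0.0515 in KO and 10.29 ± 0.0376 in control and did not pass the test (adjusted p = 0.639). Of 12 measured mesenchymal genes 2 rose and 1 fell (25%, against the same 9.49% of all genes). FN1, the fibronectin gene, was 1.78-fold and VIM 1.27-fold higher, and CD44 1.28-fold lower. ZEB1, a repressor of epithelial genes, averaged 8.01 ± 0.0998 in KO and 8.09 ± 0.142 in control (adjusted p = 0.723). The calls of CD44, ELF1 and LSR were lost without any 1 of the arrays, and those of VIM, ERBB3, NGFR and TFAP2C without some of them.

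**Figure D4:**
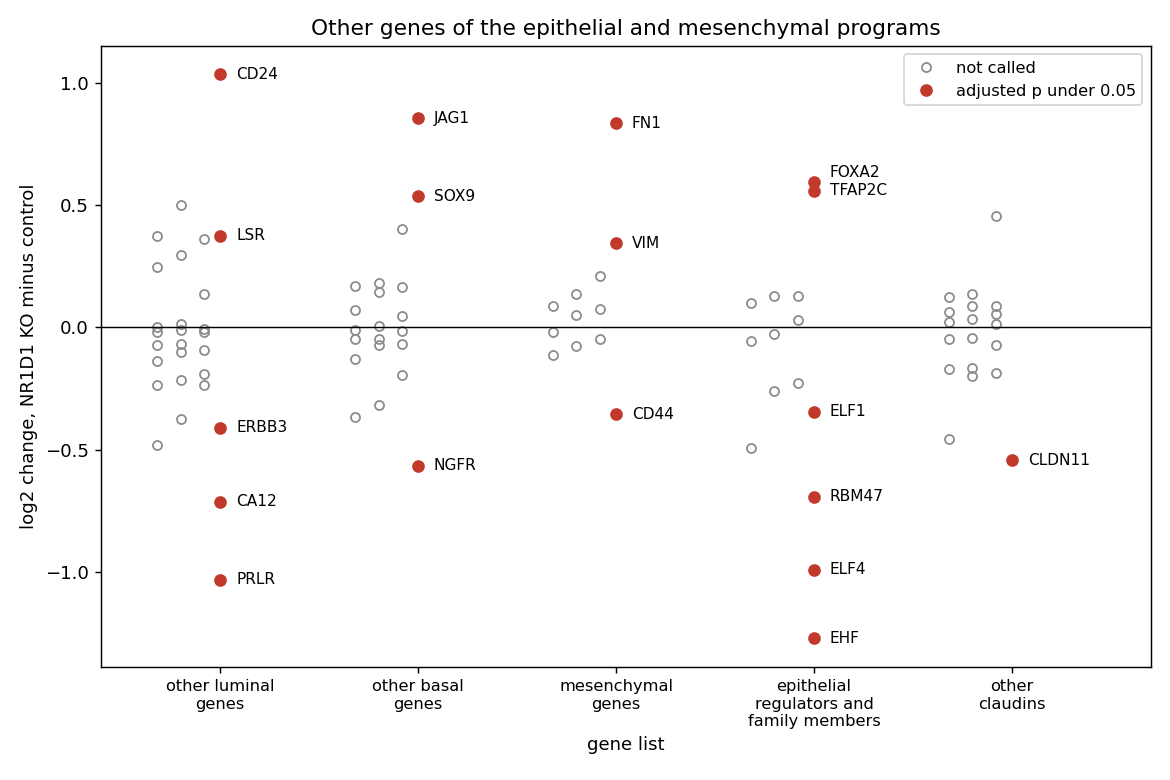
Log2 change, NR1D1 KO minus control, of the 95 measured genes of 5 further lists, with called genes filled and named. EHF, PRLR and ELF4 lie near or below -1 and CD24 near 1, and called genes appear on both sides of 0 in all lists except the other claudins, where 1 fell.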

How the data were processed

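Per the labels' protocols, total RNA became whole-transcript cDNA, which was fragmented, labelled with biotin and put on GeneChip arrays. The authors deposited 1 value per probe set and array, read as log2 from their range of 1.157 to 13.75. How the scans were corrected, normalized and summarized is not given in the sources used here. The arrays have near-equal medians, and whether they were normalized together or each on its own is not known. An error in the scale would change every fold.

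Of 53617 probe sets, 16098 had 1 symbol in the platform annotation and 37519 had none there, which leaves them unnamed here. All symbols matched the RefSeq table of assembly GRCh38.p14, used for names and gene order. The probe set with the highest mean stood for a gene, with no filter on level. The groups, KO and control with 3 arrays each, came from the titles and were set against each other in limma 3.58.1 under R 4.3.3 (two-sided, lmFit with eBayes), with Benjamini-Hochberg adjustment over 14884 genes. Precision is limited by the number of arrays, with a median standard error of 0.101 per log2 change. The fit was tested on simulated data.

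The members and lists were chosen with earlier results of these data known. Every measured member may be named. Those with an unadjusted p under 0.05 are given by array. From each further list up to 6 called genes are named by size of change. Alternatives were another normalization, filters on dim genes, other treatment of probe sets, other priors and weights, a replicate block, leaving out each array and a fold threshold. Promoter sequences are from the RefSeq table of GRCh38.p14. Plots used matplotlib 3.10.9 and Python 3.11.15.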

Additional observations from a re-analysis of the deposited data

How the results depend on the processing

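Across the 16 alternatives CLDN1, GATA3 and TRPS1 stayed called and lower wherever they were tested (CLDN1 is dropped when the dimmest 50% of genes are left out), and no called lineage gene changed direction. The log2 change ran from -1.162 to -1.038 for CLDN1, -0.7725 to -0.6645 for GATA3 and -0.7563 to -0.6448 for TRPS1. Leaving out 1 array gave 3 to 5 called lineage genes in place of 6, 723 to 1049 called genes in place of 1412 and 11 to 14 called genes of the further lists in place of 18. With limma's treat against a fold of 1.2 these counts were 3, 333 and 8, since that test asks for more than a difference from 0. KRT18 also missed the threshold when the values were quantile-normalized again (adjusted p = 0.0642) or its probe sets averaged (0.0513). KRT80 passed with a prior using trend and robust settings (0.0314). With the dimmest 50% of genes left out, where fewer are adjusted for, KRT80 (0.0328) and CLDN7 (0.0306) passed. With the replicate number as a block 4 lineage genes were called, 3 of them lower, and 1050 genes in all, and KRT18 (0.0973) and KRT19 (0.0852) missed the threshold. The numbers are not shown to pair the arrays: same-numbered arrays deviated from their group means with correlations of 0.0547, 0.0681 and -0.106. Of the 22 lineage genes not called, 10 changed sign under some alternative. Low signal limits what can be seen of PGR, ELF5, KIT, KRT5, ESRP1, GRHL1 and GRHL2, the dimmest members.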
